A study of Mus musculus with 6 samples.

Results

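In splenic B-cells of 3 mouse genotypes, the transcripts of 34 genes that mark macrophages, monocytes and neutrophils were followed from resting to LPS-stimulated cells. The genes were taken by name from the count table, where all 34 were present among 46963 gene names. They were sorted by role into 18 macrophage genes (10 of red pulp macrophages and 8 of complement and clearance), 6 genes shared by myeloid cells and 10 granulocyte genes. They were chosen by cell type, except Sirpb1a, Paqr9, Hpgd, Cebpa and C6, which were selected on their counts in the LPS libraries, where they had been seen to fall to 0, so that their fall is described here and not tested.

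Red pulp macrophages engulf aged erythrocytes, break down their haem and return the iron to the circulation, and they depend on the transcription factor SPI-C. Neutrophils carry antimicrobial proteins in granules, many of which are transcribed in immature cells of the bone marrow, while the calprotectin genes S100a8 and S100a9 stay abundant in mature cells. Depletion of CD43+ splenocytes removes most leukocytes that carry this surface sialoglycoprotein, among them T-cells, granulocytes and activated cells, and leaves mainly resting B-cells. The 34 genes are known from cells other than B-cells, although B-cells can transcribe some of them at low levels. In bulk RNA, fewer cells of a type and less RNA per cell cannot be told apart.

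Each of the 3 genotypes was represented by 1 library in each culture state, 6 libraries in all, from mice of both sexes aged 8 to 12 weeks in a 129 background. The wt mice carried the intact IgH locus, the Eμ-deficient mice lacked the Eμ enhancer with its matrix attachment regions (EμMAR) and the 3′RR-deficient mice lacked the 3′ regulatory region, both as germline deletions. All libraries were made from CD43- splenic B-cells, and the stimulated cells received 5 μg per ml LPS for 2 days. The labels state that cells of 2 mice were pooled per library and that the resting cells were also kept in medium for 2 days, while the methods of the study describe them as taken before stimulation and name more mice. LPS and time in culture can therefore not be told apart here. The methods describe splenocytes of 4 mice per genotype, obtained before and after stimulation. Which of these mice entered each library was not given in the sources used here.

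Gene counts per library ranged from 9111974 to 21998587, and values are given as counts or as CPM, counts scaled by the TMM method to a common library size. In these libraries 3 counts, the most that a count of 0 allows, were worth 0.144 to 0.334 CPM. The 4 B-cell genes tested (Cd79a, Cd79b, Ms4a1 and Pax5) summed to between 1227 and 1976 CPM in every library, and 0 of the 4 passed the threshold for LPS (edgeR, 1 at an unadjusted p under 0.05, and 1, Cd79a, called lower with the DESeq2 Wald test). Spn, the gene of CD43, was detected at 9.89 to 16.9 CPM in the resting libraries and at 21.05 to 89.3 CPM after LPS. With 1 library per genotype and state, ratios between libraries have no replicate check, and their 95% intervals (exact conditional binomial, Clopper-Pearson) cover counting error only.

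The promoters of the members differed in the letters they held. The promoter windows printed here are the 250 bases upstream of the RefSeq start (GRCm38.p6), and they were chosen, after the values were seen, among windows that overlapped the annotated gene by less than 30 bases and held a motif. Capitals mark the PU box GAGGAA, the core letters bound by PU.1 and its relative SPI-C, or the C/EBP motif TTGCNNAA, bound by C/EBP factors such as the product of Cebpa, on either strand. Treml4 (chr17:48264045-48264294, plus strand), C1qb (chr4:136886201-136886450, minus strand) and Cd5l (chr3:87357631-87357880, plus strand) stand for the macrophage genes, and S100a9 (chr3:90695722-90695971, minus strand) and Ltf (chr9:111019042-111019291, plus strand) for the granulocyte genes.
Treml4: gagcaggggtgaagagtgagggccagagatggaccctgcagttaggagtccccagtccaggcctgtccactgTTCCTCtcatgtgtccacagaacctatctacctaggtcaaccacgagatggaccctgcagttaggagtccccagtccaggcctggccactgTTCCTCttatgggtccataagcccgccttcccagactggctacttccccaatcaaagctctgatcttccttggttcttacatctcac
C1qb: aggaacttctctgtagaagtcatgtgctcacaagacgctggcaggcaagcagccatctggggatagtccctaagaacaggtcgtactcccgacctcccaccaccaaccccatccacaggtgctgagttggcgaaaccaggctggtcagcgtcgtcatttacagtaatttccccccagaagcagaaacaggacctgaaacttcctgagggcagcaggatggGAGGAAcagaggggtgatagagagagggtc
Cd5l: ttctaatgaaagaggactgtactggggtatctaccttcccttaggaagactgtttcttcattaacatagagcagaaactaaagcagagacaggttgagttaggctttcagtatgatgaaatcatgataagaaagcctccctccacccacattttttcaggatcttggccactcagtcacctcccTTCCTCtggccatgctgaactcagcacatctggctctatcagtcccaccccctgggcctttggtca
S100a9: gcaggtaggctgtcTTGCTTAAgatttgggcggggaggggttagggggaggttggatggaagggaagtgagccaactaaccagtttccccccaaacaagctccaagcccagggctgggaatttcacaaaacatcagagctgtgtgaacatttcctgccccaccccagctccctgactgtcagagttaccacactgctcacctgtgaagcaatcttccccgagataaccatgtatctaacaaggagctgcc
Ltf: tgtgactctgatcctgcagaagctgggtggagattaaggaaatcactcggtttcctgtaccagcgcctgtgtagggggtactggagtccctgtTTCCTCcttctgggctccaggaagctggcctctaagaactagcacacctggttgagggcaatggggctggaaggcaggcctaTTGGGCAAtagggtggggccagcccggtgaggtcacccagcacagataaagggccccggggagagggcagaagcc
RefSeq held a window for 27 of the 34 genes. Not all of these lay upstream of the annotated gene. For Prtn3, Spic and Lcn2 the RefSeq start lay 5191, 1992 and 513 bases inside it. These windows were kept in the counts, where Prtn3 held a PU box and Lcn2 held both motifs. A PU box was found in 8 of 13 macrophage windows (61.5%), in 1 of 4 shared myeloid windows (25.0%) and in 7 of 10 granulocyte windows (70.0%), against 23.3% of all 32851 windows. The C/EBP motif was found in 1 of 13 macrophage windows (7.69%), in 0 of 4 shared myeloid windows and in 4 of 10 granulocyte windows (40.0%), against 9.56% of all windows. Each motif was counted on its own, also where matches could overlap, and a match describes the letters alone.

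In resting B-cells, the shared myeloid genes and the macrophage genes were well above the granulocyte genes. The 18 macrophage genes summed to 173, 721 and 292 CPM in the resting wt, Eμ-deficient and 3′RR-deficient libraries, the 6 shared genes to 181, 442 and 170 CPM, and the 10 granulocyte genes to 7.97, 13.1 and 20.6 CPM. Per kilobase of exon in the resting wt library, the highest members were Lyz2 (lysozyme) at 60.4 CPM per kb, Tyrobp (the signalling adaptor DAP12) at 51.0 CPM per kb and Hmox1 (haem oxygenase, which opens the haem ring) at 20.4 CPM per kb. Among granulocyte genes the highest was S100a9 at 2.44 CPM per kb, and the lowest member of all was Ltf (lactoferrin) at 0.0321 CPM per kb. Macrophage counts exceeded granulocyte counts 21.7 times in wt, 55.2 times in Eμ-deficient and 14.2 times in 3′RR-deficient resting cells.

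**Figure D1:**
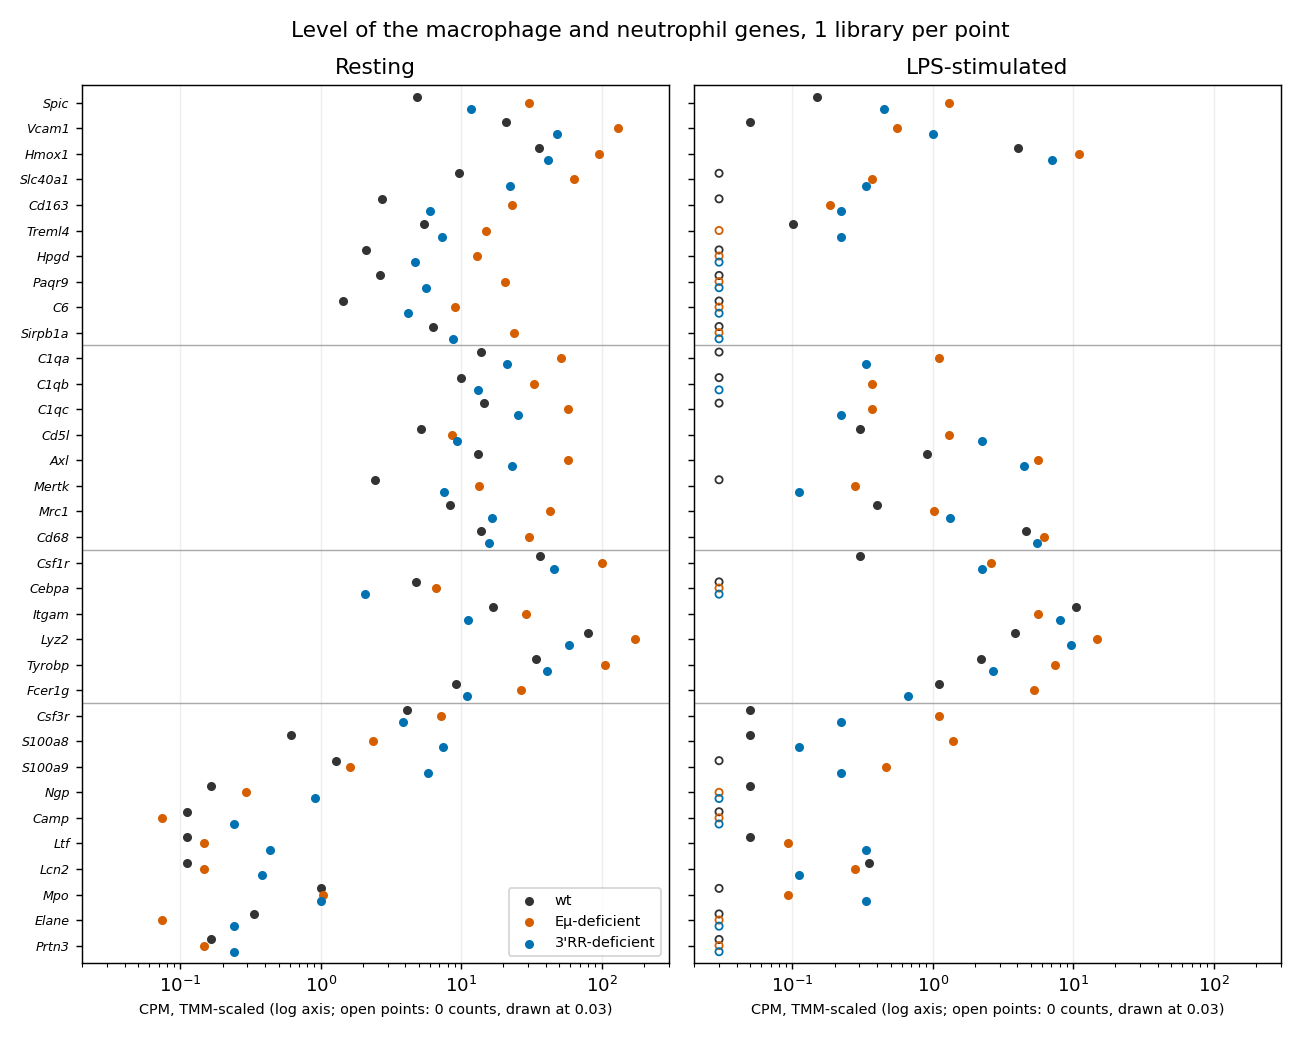
TMM-scaled CPM (log axis) of the 34 genes in the resting and the LPS-stimulated library of each genotype, 1 library per point, with grey lines between red pulp macrophage, complement and clearance, shared myeloid and granulocyte genes. In the left panel most macrophage points run from wt through 3′RR-deficient to Eμ-deficient, and in the right panel the open points at the left edge are libraries with 0 counts.

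The red pulp macrophage genes were highest in the resting Eμ-deficient library and lowest in the resting wt library, for 10 of 10 genes. Spic, which encodes SPI-C, had 87, 409 and 244 counts in wt, Eμ-deficient and 3′RR-deficient resting cells, or 4.81, 30.2 and 11.7 CPM. Vcam1, an adhesion molecule of these macrophages, stood at 21.03, 132 and 48.2 CPM. Slc40a1, which encodes the iron exporter ferroportin, stood at 9.57, 63.6 and 22.2 CPM. The log2 ratio of the Eμ-deficient to the wt library was 2.65 for Spic (interval 2.31 to 3.00), 2.65 for Vcam1 (2.48 to 2.81) and 2.73 for Slc40a1 (2.49 to 2.98). The 3 intervals overlapped, at 6.26 to 6.64 times the wt level. Cd163, the scavenger receptor for haptoglobin and haemoglobin complexes, had the highest ratio of the members at 3.08 (2.64 to 3.54), from 2.71 to 22.9 CPM, and it was at 5.99 CPM in 3′RR-deficient cells. Hmox1 and Treml4, a receptor of the TREM-like family, had the lowest ratios of the red pulp genes, at 1.43 (1.30 to 1.57) and 1.47 (1.12 to 1.84).

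The 4 red pulp members that had been picked for their fall after LPS followed the same order between resting libraries, which that choice did not use. Hpgd, the enzyme that inactivates prostaglandins, had 38, 177 and 97 counts in the wt, Eμ-deficient and 3′RR-deficient libraries. Paqr9, a progestin and adipoQ receptor family member, had 48, 280 and 117 counts, and C6, a component of the membrane attack complex, had 26, 123 and 87 counts. Sirpb1a, a signal-regulatory protein that pairs with DAP12, had 113, 320 and 183 counts. The Eμ-deficient to wt log2 ratios of these genes lay between 1.92 and 2.96. Sirpb1a has near-identical copies and multi-mapping reads were counted, so that its counts may be shared with Sirpb1b (53, 190 and 85 counts) and Sirpb1c (45, 144 and 58 counts), which showed the same order.

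The complement and clearance genes followed the same order for 7 of 8 genes, with smaller ratios at their lower end. C1qa (chr4:136895917-136898803), C1qb (chr4:136880129-136886187) and C1qc (chr4:136889804-136893065, all GENCODE M21 on GRCm38, minus strand) lie next to each other and encode the 3 chains of C1q, the recognition part of the classical complement pathway. C1qa had 249, 695 and 441 counts in the wt, Eμ-deficient and 3′RR-deficient resting libraries, C1qb had 181, 451 and 273, and C1qc had 263, 785 and 533. Within the counts of the trio, C1qa took 35.9%, 35.99% and 35.4% of its counts, C1qb 26.1%, 23.4% and 21.9%, and C1qc 38.0%, 40.7% and 42.7%. The share of C1qa thus stayed level. That of C1qb was highest in wt, but its intervals overlapped, at 22.9% to 29.6% in wt, 21.5% to 25.3% in Eμ-deficient and 19.6% to 24.3% in 3′RR-deficient cells. The Eμ-deficient to wt log2 ratios of the trio were 1.90 (1.69 to 2.11), 1.73 (1.48 to 1.99) and 1.99 (1.79 to 2.20). Axl and Mertk, receptor tyrosine kinases for the uptake of apoptotic cells, had ratios of 2.11 (1.90 to 2.33) and 2.47 (1.99 to 2.98), and Mrc1, the mannose receptor, 2.36 (2.10 to 2.62). Cd68, a lysosomal glycoprotein, had a ratio of 1.15 (0.91 to 1.38).

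Cd5l was the macrophage gene outside this order. It encodes a secreted scavenger protein of macrophages and stood at 5.20 CPM in wt, 8.56 CPM in Eμ-deficient and 9.40 CPM in 3′RR-deficient resting cells. Its log2 ratio of the Eμ-deficient to the 3′RR-deficient library was -0.13 (-0.48 to 0.20), so that these libraries did not differ beyond counting error for Cd5l.

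Over the 18 macrophage genes, the median log2 ratio of the resting Eμ-deficient to the resting wt library was 2.24 (1.47 when scaled by spike-in RNAs), 18 of 18 were higher and 17 were at least 2-fold higher, against 12.1% of all genes tested. The median over all genes was -0.02. For the resting 3′RR-deficient against the resting wt library the median was 0.93, 18 of 18 were higher and 8 were at least 2-fold higher, against 5.17% of all genes. Both comparisons share the wt library. The order Eμ-deficient above 3′RR-deficient above wt held for 17 of 18 macrophage genes and for 3 of 6 shared genes, against 22.3% of all genes tested. It held for 9 of the 15 other splenic macrophage genes. It held for 1 of 10 granulocyte genes, 6 of which were too low to be tested.

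**Figure D2:**
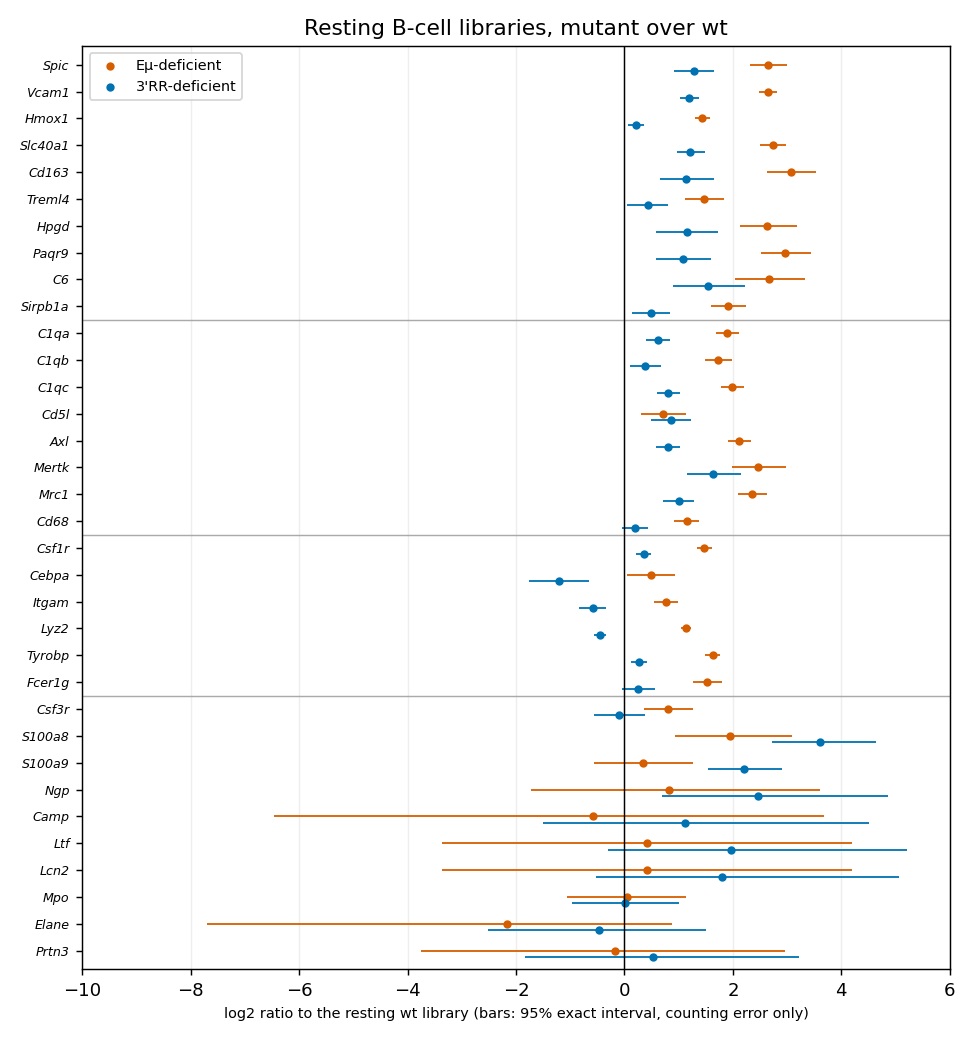
Log2 ratio of the resting Eμ-deficient and the resting 3′RR-deficient library to the resting wt library for the 34 genes, with 95% exact intervals that cover counting error only. The Eμ-deficient points of the macrophage genes lie between 0.72 and 3.08, while S100a8, S100a9 and Ngp reach 3.61, 2.20 and 2.46 in the 3′RR-deficient library.

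The genes shared by myeloid cells split between the mutants. All 6 were higher in the resting Eμ-deficient than in the resting wt library, with log2 ratios from 0.48 (Cebpa) to 1.63 (Tyrobp). Csf1r, the receptor for the macrophage growth factor CSF1, had 654, 1361 and 964 counts in wt, Eμ-deficient and 3′RR-deficient resting cells. Fcer1g, the signalling chain of Fc receptors, had 166, 359 and 229 counts. Of the 6, 3 were lower in the resting 3′RR-deficient than in the resting wt library. Cebpa, the transcription factor C/EBP alpha of early myeloid and granulocytic cells, had 86, 90 and 43 counts, with a 3′RR-deficient over wt log2 ratio of -1.21 (-1.77 to -0.66). For Itgam, the integrin CD11b, that ratio was -0.59 (-0.84 to -0.34), and for Lyz2 it was -0.45 (-0.56 to -0.34).

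Among the granulocyte genes, 7 of the 10 had their highest level in the resting 3′RR-deficient library, but 5 of these 7 were too low to be tested. Of the 4 granulocyte genes tested, S100a8 and S100a9 were highest there, as were 1 of 18 macrophage genes, 0 of 6 shared genes and 26.3% of all genes tested. S100a8 (chr3:90668978-90670035, plus strand) had 11, 32 and 155 counts in wt, Eμ-deficient and 3′RR-deficient resting cells, and its partner S100a9 (chr3:90692632-90695721, minus strand) had 23, 22 and 122 counts. The 3′RR-deficient over wt log2 ratio was 3.61 for S100a8 (2.73 to 4.64) and 2.20 for S100a9 (1.55 to 2.91). The corresponding ratios of the Eμ-deficient library were 1.96 (0.93 to 3.09) and 0.35 (-0.56 to 1.26), so that for S100a9 this library did not differ from wt beyond counting error. Csf3r, the receptor for the neutrophil growth factor G-CSF, did not follow the calprotectin genes, with 74, 97 and 80 counts and CPM values of 4.09, 7.16 and 3.84.

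The granule genes had at most 21 counts in any library. Of the secondary granule genes, Ngp (neutrophilic granule protein) had 3, 4 and 19 counts in the wt, Eμ-deficient and 3′RR-deficient resting libraries, Camp (the cathelicidin) 2, 1 and 5, Ltf 2, 2 and 9, and Lcn2 (lipocalin 2, which binds bacterial siderophores) 2, 2 and 8. Of the primary granule genes, Mpo (myeloperoxidase) had 18, 14 and 21 counts, Elane (neutrophil elastase) 6, 1 and 5, and Prtn3 (proteinase 3) 3, 2 and 5. Only for Ngp among these 7 genes did the interval of the 3′RR-deficient to wt log2 ratio, 2.46 (0.69 to 4.86), exclude 0. For Mpo it was 0.02 (-0.96 to 1.01).

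Summed over the list, the 10 granulocyte genes were 2.58-fold higher in the resting 3′RR-deficient than in the resting wt library and 1.64-fold higher in the Eμ-deficient library. The median log2 ratio of the Eμ-deficient to the wt library over the 6 granulocyte genes with more than 3 counts in either library was 0.58, and it turned to -0.19 when scaled by spike-in RNAs. The macrophage genes were 4.17-fold higher in sum in the Eμ-deficient and 1.69-fold higher in the 3′RR-deficient library. Among the members, the macrophage sum was thus highest in Eμ-deficient and the granulocyte sum in 3′RR-deficient cells. Of the 429 granulocyte counts in the resting 3′RR-deficient library, 155 were of S100a8 and 122 of S100a9. A list of 14 other granulocyte genes was highest in Eμ-deficient cells. It summed to 10.9, 20.2 and 14.5 CPM in the resting wt, Eμ-deficient and 3′RR-deficient libraries. The order of the granulocyte sums therefore depended on the genes listed.

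Transcripts of other blood cells also differed between the resting libraries, not all in one direction. The 6 erythroid genes, led by the haemoglobin gene Hba-a1, summed to 1891 CPM in wt, 9810 CPM in Eμ-deficient and 2038 CPM in 3′RR-deficient resting cells. The 7 monocyte genes summed to 28.7, 87.3 and 27.5 CPM, the 8 T cell and NK cell genes to 17.3, 33.5 and 21.8 CPM, with 4 genes higher and 4 lower in Eμ-deficient than in wt cells, and the 7 eosinophil, basophil and mast cell genes, led by Prg2, to 3.04, 42.1 and 2.30 CPM. The 4 megakaryocyte genes went the other way, at 19.2, 6.94 and 11.1 CPM, and all 4 were lower in both mutants than in wt. The B-cell genes were lowest in the Eμ-deficient library, at 1296 CPM against 1799 CPM in wt and 1976 CPM in 3′RR-deficient resting cells. The part of these values in the macrophage and granulocyte differences was not tested. Among other granulocyte genes, Ly6g was at 0 counts in all 6 libraries.

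The genotype terms of an edgeR quasi-likelihood model over all 6 libraries gave the same direction for the Eμ-deficient mice. The residual of this model is the departure from additivity of genotype and culture state, not the spread between mice. Of the 34 members, 5 were called higher at an adjusted p under 0.05, against 0.877% of 14600 genes, and 0 were called lower, against 0.267%, while 6 granulocyte genes were too low to be tested. The log2 change of the Eμ-deficient against the wt libraries was 2.74 for Spic (SE 0.40, adjusted p = 0.0157), 1.68 for Tyrobp (SE 0.28, adjusted p = 0.0256), 2.26 for Axl (SE 0.39, adjusted p = 0.0285), 2.79 for Slc40a1 (SE 0.49, adjusted p = 0.0303) and 3.05 for Cd163 (SE 0.59, adjusted p = 0.0474). Vcam1 missed the threshold at 2.59 (SE 0.51, adjusted p = 0.0512). Members called higher numbered 14 with the DESeq2 Wald test, 19 without the 3′RR-deficient libraries and 1 when scaled by spike-in RNAs, so that their number depended on the model and the scaling.

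For the 3′RR-deficient against the wt libraries, 28 of the 34 members were tested. In edgeR 0 passed the threshold, against 0.185% of all genes called higher and 0.575% called lower. At an unadjusted p under 0.05 in edgeR were 10 members, against 825 of 14600 genes tested. With the DESeq2 Wald test 0 members passed, against 54 of 14600 genes called higher and 131 called lower. S100a8 was at a log2 change of 3.23 (SE 0.98, adjusted p = 0.422) and S100a9 at 2.28 (SE 0.82, adjusted p = 0.638). S100a8 passed without the Eμ-deficient libraries, at 3.24 (adjusted p = 0.0263).

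After LPS, the macrophage genes were nearly lost in each genotype. Their sum was 10.6 CPM in wt, 29.7 CPM in Eμ-deficient and 23.5 CPM in 3′RR-deficient cells, or 6.13%, 4.12% and 8.04% of the resting level. In each genotype most of the counts left were of Cd68 and Hmox1. The highest LPS level lay below the lowest resting level for 18 of 18 macrophage genes and 6 of 6 shared genes, against 26.1% of all genes tested, and for 7 of 10 granulocyte genes, 6 of which were too low to be tested. Over the macrophage genes, with values under 3 counts raised to 3, the median LPS over resting log2 ratio was -4.27 in wt, -5.57 in Eμ-deficient and -4.31 in 3′RR-deficient cells. Of the 18 genes, 13 in wt, 7 in Eμ-deficient and 11 in 3′RR-deficient cells had 3 or fewer counts after LPS. The medians therefore follow resting counts and depth in part, and do not rank the genotypes. At least 8-fold lower were 17, 16 and 14 of the 18, against 3.93%, 3.5% and 2.23% of all genes. Because LPS falls entered the choice of members, these counts describe the set.

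A total of 8 members had 0 counts in all 3 LPS libraries. They were the 5 members picked for that pattern and Camp, Elane and Prtn3, which had at most 6 counts in any resting library and were too low to be tested. Of all genes tested 0.363% had 0 counts there, a share that cannot be set against this count. Sirpb1a was at least 41.5-fold lower in wt, at least 84.7-fold lower in Eμ-deficient and at least 26.3-fold lower in 3′RR-deficient cells, where 3 counts per library served as the floor. Paqr9 was at least 17.6-fold, 74.1-fold and 16.8-fold lower, Hpgd at least 14.0-fold, 46.9-fold and 13.9-fold lower, and C6 at least 9.55-fold, 32.6-fold and 12.5-fold lower. For Cebpa the bounds were 31.6-fold, 23.8-fold and 6.17-fold. The bounds follow the resting counts and the depth of each library, and do not rank the genotypes.

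Other red pulp genes fell to a few counts rather than to 0. Vcam1 had 1 count in the wt, 6 in the Eμ-deficient and 9 in the 3′RR-deficient LPS library, with log2 ratios to the resting library of -8.71 (-14.02 to -6.22), -7.88 (-9.33 to -6.76) and -5.59 (-6.72 to -4.66). Spic had 3, 14 and 4 counts, with log2 ratios of -5.00 (-7.30 to -3.40), -4.54 (-5.42 to -3.77) and -4.71 (-6.60 to -3.34). Slc40a1 had 0, 4 and 3 counts, Cd163 had 0, 2 and 2, and Treml4 had 2, 0 and 2. Spic and Vcam1 thus kept more counts in the mutants than in wt, at lower depth. Hmox1, which many stressed cells transcribe, fell least of the red pulp genes and kept 81, 119 and 63 counts, with log2 ratios of -3.13 (-3.48 to -2.80), -3.12 (-3.41 to -2.85) and -2.56 (-2.95 to -2.19). All 18 macrophage genes together kept 211, 320 and 211 counts.

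The C1q trio fell from the levels given above to 0 counts of each gene in the wt LPS library. C1qa, C1qb and C1qc were there at least 91.4-fold, 66.5-fold and 96.6-fold lower. In the Eμ-deficient LPS library they had 12, 4 and 4 counts and in the 3′RR-deficient LPS library 3, 0 and 2. Mertk had 0, 3 and 1 counts. Axl (18, 60 and 40 counts), Cd5l (6, 14 and 20 counts) and Mrc1 (8, 11 and 12 counts) remained detectable in every LPS library. Cd68 fell least of the macrophage genes, to 92, 67 and 50 counts, with log2 ratios of -1.58 (-1.94 to -1.23), -2.29 (-2.69 to -1.92) and -1.51 (-1.97 to -1.07).

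**Figure D3:**
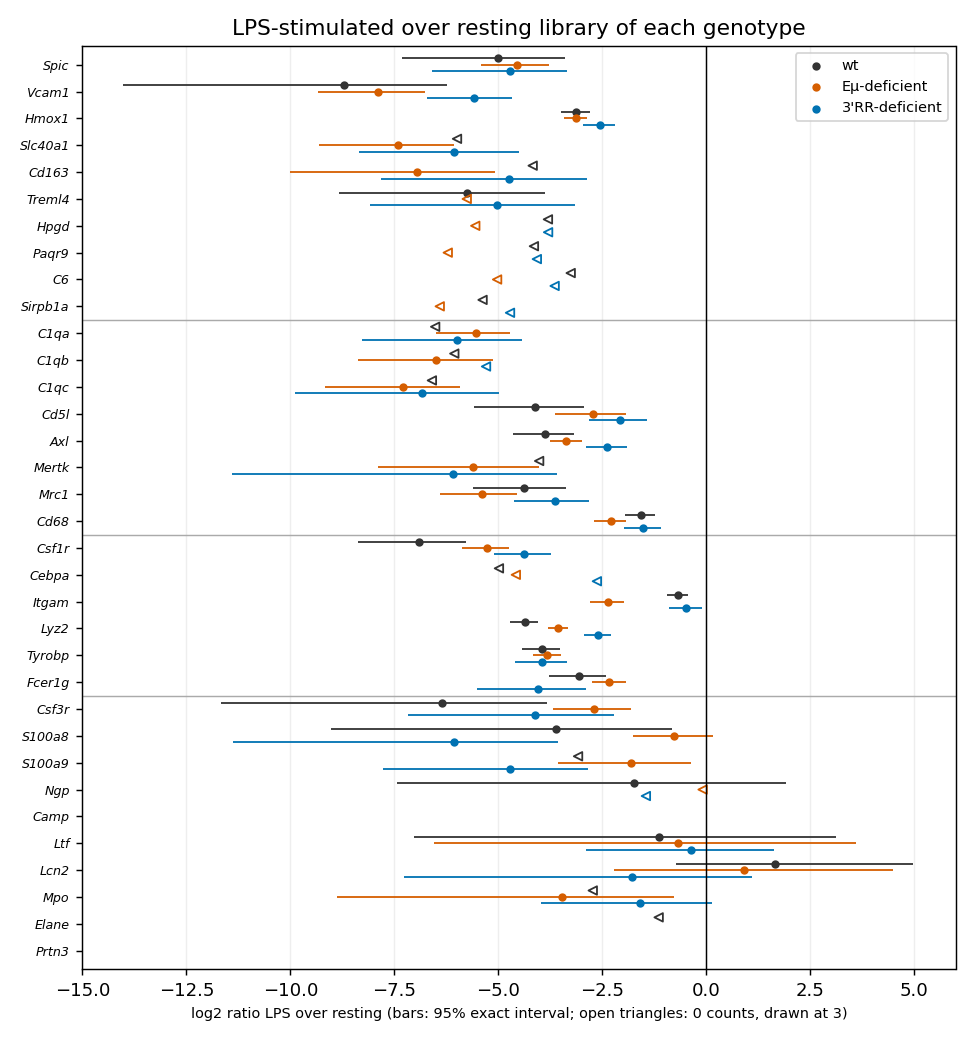
Log2 ratio of the LPS-stimulated to the resting library of each genotype for the 34 genes, with 95% exact intervals (counting error only). Open triangles mark an LPS library with 0 counts, drawn at 3 counts, so that they stand for an upper bound of the ratio. A pair of libraries with 0 LPS counts has no point where the resting library had 3 counts or fewer or where the bound would lie above 0. Itgam and Cd68 lie nearest to 0 among the macrophage and shared genes of wt and 3′RR-deficient cells, and Vcam1 of wt cells lies farthest from it.

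Among the shared genes other than Cebpa, Csf1r fell most, from 36.2, 100 and 46.2 CPM to 0.301, 2.60 and 2.23 CPM. Csf1r overlaps Hmgxb3 on the opposite strand, and the counting was by strand. Itgam fell least in wt and in 3′RR-deficient cells. Itgam stood at 16.9, 28.8 and 11.2 CPM in the resting wt, Eμ-deficient and 3′RR-deficient libraries and at 10.5, 5.57 and 8.02 CPM after LPS. Its log2 ratios were -0.68 (-0.95 to -0.43), -2.37 (-2.79 to -1.97) and -0.48 (-0.89 to -0.10). In edgeR the fall of Itgam was 1.15 on the log2 scale (SE 0.38, adjusted p = 0.035), and without the Eμ-deficient libraries the log2 change was -0.60 (adjusted p = 0.343). Lyz2 went from 79.5, 174 and 58.3 CPM to 3.87, 14.8 and 9.58 CPM, and Tyrobp from 34.03, 105 and 40.8 CPM to 2.21, 7.43 and 2.67 CPM.

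The granulocyte genes fell from a lower start, and by different amounts. Their sum was 6.93% of the resting level in wt, 26.3% in Eμ-deficient and 6.50% in 3′RR-deficient cells, with 11, 37 and 12 counts left over the 10 genes. S100a8 went from 155 counts to 1 in 3′RR-deficient cells, a log2 ratio of -6.06 (-11.37 to -3.56), and from 32 to 15 counts in Eμ-deficient cells, a log2 ratio of -0.76 (-1.75 to 0.17). In wt it went from 11 counts to 1. S100a9 went from 23, 22 and 122 counts to 0, 5 and 2, and Csf3r from 74, 97 and 80 counts to 1, 12 and 2. Of the 37 granulocyte counts left in the Eμ-deficient LPS library, 15 were of S100a8, 12 of Csf3r and 5 of S100a9. Mpo went from 18, 14 and 21 counts to 0, 1 and 3. Lcn2 had 7, 3 and 1 counts after LPS, against 2, 2 and 8 at rest.

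In edgeR, 23 of the 29 members named by cell type were called lower after LPS and 0 higher, against 20.4% and 20.7% of all genes, and the remaining 6 were the granulocyte genes too low to be tested. Some members, such as S100a9, Mpo, Slc40a1 and Cd163, passed the count filter only through their resting libraries. For these hardly any call but lower was open, so that the calls describe the set. The log2 change of the tested granulocyte genes was -2.70 for S100a8 (SE 0.82, adjusted p = 0.027), -3.66 for S100a9 (SE 0.76, adjusted p = 0.00492), -3.14 for Mpo (SE 0.87, adjusted p = 0.0181) and -3.82 for Csf3r (SE 0.60, adjusted p = 0.00115). Without the 3′RR-deficient libraries S100a8 was at -1.52 (adjusted p = 0.079).

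Genes of the same cell types that are not among the 34 were tested in the same way. Of 36 other macrophage, monocyte and granulocyte genes, 29 could be tested. Of these 25 were called lower after LPS and 0 higher, against the 20.4% and 20.7% above. Here too some genes, such as Itgad and Fcna, passed the count filter only at rest and could hardly be called otherwise. Among 15 other splenic macrophage genes 14 were called lower. Itgad (CD11d) had 145, 414 and 336 counts at rest and 0, 0 and 2 after LPS, and Fcna (ficolin A) had 128, 432 and 234 counts at rest and 0, 0 and 1 after LPS. Marco, a scavenger receptor of marginal zone macrophages, was the exception at a log2 change of -0.68 (SE 0.38, adjusted p = 0.184). Among 7 monocyte genes 6 were called lower, such as Ccr2 with 106, 510 and 122 counts at rest and 1, 18 and 1 after LPS. Ly6c2, which activated lymphocytes can also transcribe, was the exception. Of 14 other granulocyte genes 7 could be tested and 5 were called lower, Mmp9, Retnlg, Pglyrp1, Mcemp1 and Cd177.

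The lists of other cell types were set beside the same 20.4% of all genes called lower. The limit for genes that passed the count filter only at rest holds for these lists as well. Called lower were 6 of 6 erythroid genes, 7 of 8 T cell and NK cell genes, 6 of 7 dendritic cell genes and 3 of 4 megakaryocyte genes. Of the 4 stroma and endothelium genes 2 could be tested and 1 was called lower. Of the 7 eosinophil, basophil and mast cell genes only Prg2 could be tested, and it was called lower. So few tested genes cannot be set against that share. The sum of the 7 genes was 26.4%, 17.0% and 43.6% of the resting level in wt, Eμ-deficient and 3′RR-deficient cells. Erythroid genes summed to 23.9, 290 and 76.6 CPM after LPS and T cell and NK cell genes to 0.352, 4.92 and 1.34 CPM. The B-cell genes, at 1538, 1227 and 1361 CPM, kept most of their resting level. The part of these changes in the fall of the macrophage and granulocyte genes was not tested.

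**Figure D4:**
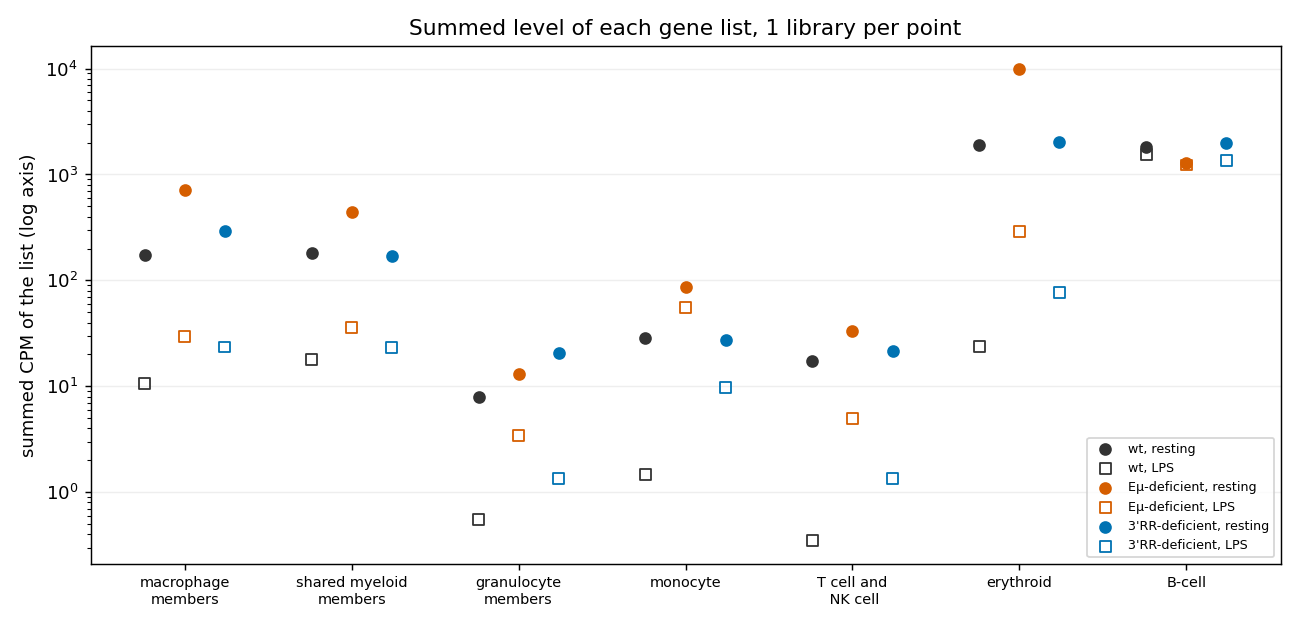
Summed CPM (log axis) of the macrophage, shared myeloid and granulocyte members and of 4 other gene lists, 1 library per point, with filled circles for resting and open squares for LPS-stimulated B-cells. The B-cell sums stay between 1227 and 1976 CPM, while the macrophage sums drop from 173, 721 and 292 CPM to 10.6, 29.7 and 23.5 CPM.

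After LPS the macrophage sum was 2.80-fold higher in the Eμ-deficient and 2.22-fold higher in the 3′RR-deficient than in the wt library. Axl was at 0.904 CPM in wt, 5.57 CPM in Eμ-deficient and 4.46 CPM in 3′RR-deficient LPS-stimulated cells. The log2 ratios of Axl to the wt library were 2.62 (1.84 to 3.47) and 2.30 (1.47 to 3.19). Csf1r followed with log2 ratios of 3.11 (1.81 to 4.67) and 2.89 (1.52 to 4.49). For Cd68 the ratios were 0.43 (-0.05 to 0.90) and 0.27 (-0.26 to 0.78), within counting error of 0. Macrophage counts still exceeded granulocyte counts after LPS, 19.2 times in wt, 8.65 times in Eμ-deficient and 17.6 times in 3′RR-deficient cells. Most of these macrophage counts were of Cd68 and Hmox1, so that the ratios rest largely on these genes.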

How the data were processed

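The authors removed ribosomal RNA, made stranded paired-end libraries, aligned reads to mm10 with STAR 2.4.0a and counted them per gene name with featureCounts (Subread 1.4.6-p1, versions from the submitters' processing notes), also where they mapped to several places. The deposited table holds the raw counts, 1 column per library. The 92 spike-in RNAs took 4.75% to 7.10% of the counts and entered neither library sizes nor tests. Gene lengths came from GENCODE M21 (GRCm38).

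Library sizes were TMM-scaled (edgeR 4.0.16, R 4.3.3). The quasi-likelihood model held genotype and culture state as additive terms over 14600 genes (10 counts or more in 2 libraries or more), and p-values were adjusted by Benjamini-Hochberg over all of them, threshold 0.05. The SE given with edgeR values was derived from the test, as the absolute log2 change divided by the square root of its F statistic. Between 2 libraries, ratios have exact conditional binomial intervals (scipy 1.17.1), and libraries at 3 counts or fewer were set to 3 in medians. Amplified reads are not independent molecules, so intervals and floors cover counting error only. No test compares genotypes within a state. P-values rest on the departure of these libraries from additivity of genotype and culture state, not on a spread between replicates. That departure may be technical, and it also holds any LPS change that differs between genotypes.

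The members and the lists were chosen with earlier results of these data known. Named genes are all members and, of the other lists, those past the LPS threshold or highest in mean CPM. One gene of the B-cell list is not reported here and was left out of its sums. Sirpb1b and Sirpb1c, Ly6g, Marco and Wfdc21 were named after their values were seen. The model was run on simulated counts that held LPS changes but no genotype effect and no interaction. That run cannot show how the model behaves where genotype and culture state are not additive. Alternatives were total count, DESeq2 1.42.0, immunoglobulin-free and spike-in scaling, other filters, the DESeq2 Wald test, no genotype term, log2(CPM + 1), removal of the GC trend, and leaving out each genotype. The labels and the methods of the study differ on culture of the resting cells, number of mice, extraction kit and, in one label, the unit of the LPS dose.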

Additional observations from a re-analysis of the deposited data

Results flagged for a closer look

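Some genes differed between libraries in opposite directions, with the difference itself not tested, since each value compares 1 library with 1 other. For Itgam the log2 ratio of the Eμ-deficient to the wt library was 0.77 at rest and -0.91 after LPS. For Lyz2 the 3′RR-deficient over wt log2 ratio was -0.45 at rest and 1.31 after LPS. For Ly6c2, a surface protein of monocytes, the log2 ratio of the LPS-stimulated to the resting library was 1.94 in Eμ-deficient and -2.60 in wt cells, on 185 and 564 counts against 149 and 27 counts. For Wfdc21, a neutrophil and macrophage secreted protein, this ratio was 3.10 in wt cells, from 13 to 123 counts, and -2.45 in 3′RR-deficient cells, from 76 to 6 counts.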

How the results depend on the processing

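The LPS calls of the members named by cell type numbered 21 to 23 of 29 and those of the 36 other genes 19 to 26 across the alternatives. The 5 members called higher in Eμ-deficient mice became 14 with the DESeq2 Wald test, 20 with no filter on low counts, 19 without the 3′RR-deficient libraries, 2 with total count scaling and 1 with spike-in scaling. In 3′RR-deficient mice 0 became 4 with no filter, 1 with spike-in scaling and 1 without the Eμ-deficient libraries. Spike-in scaling moved the median log2 change of all genes from -0.08 to -0.36 for Eμ-deficient mice, from -0.02 to 0.16 for 3′RR-deficient mice and from -0.03 to -0.28 for LPS. At rest it gave macrophage medians of 1.47 for Eμ-deficient over wt and 0.78 for Eμ-deficient over 3′RR-deficient cells (1.33 with TMM), and a granulocyte median of -0.19 for Eμ-deficient over wt cells. With log2(CPM + 1), which compresses low values, macrophage medians for LPS were -2.64 in wt, -4.17 in Eμ-deficient and -2.84 in 3′RR-deficient cells, and granulocyte medians -0.81 for LPS in wt cells and 0.78 for Eμ-deficient over wt LPS-stimulated cells (2.26 with TMM). Without the wt libraries the LPS change of Ly6c2 turned to 1.10 (adjusted p = 0.00106). Causes were not tested. The labels number no replicates. No pairing by mouse was possible because the labels give each group 1 library and no shared replicate number. The additive model compared the culture states within genotype. Depth limits the granule genes, and 3 counts were worth up to 0.334 CPM.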
